A study of Mus musculus with 2 samples.

Results

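In all, 10 genes of the mouse oocyte and early embryo were followed in embryonic stem (ES) cells with and without Dnmt1, the enzyme that copies DNA methylation onto newly replicated DNA. The genes were Khdc3, Nlrp5, Ooep, Tle6, Padi6, Nlrp4f, Zar1, Npm2, Gdf9 and Nobox. They are components of the subcortical maternal complex or other oocyte factors, and the group was selected on the signals of these same arrays, since the high signal of Khdc3 in the Dnmt1 knockout (KO) was already known. The comparison of the arrays for these genes is therefore a description. Of the 10 genes, 9 had a probe set assigned to that gene alone, 1 probe set each, among 18193 genes with such a probe set. Npm2, a nuclear chaperone that acts on chromatin in the egg, had none and has no value here.

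The study put total RNA from mouse ES cells on Affymetrix MOE 430 2.0 arrays, with 1 array for a control culture and 1 for a culture titled as a Dnmt1 KO. The sources used here do not give the strain, allele, clone or passage, and the source name of both samples describes a control, so the titles alone tell them apart. The KO was made as a reference for other experiments on stem cell differentiation. With 1 array per group no difference has a replicate check and no test between the groups exists. In such bulk RNA, more cells that express a gene and more RNA per cell cannot be told apart.

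The subcortical maternal complex is a protein assembly beneath the surface of the egg. It is stored by the growing oocyte and is needed for the first divisions of the embryo, which is why its genes are called maternal-effect genes. Khdc3 (also named Filia) and Ooep (Floped) are small proteins related to the KH family of RNA-binding proteins, Nlrp5 (Mater) and Nlrp4f belong to the NLR family, Tle6 to the Groucho family of corepressors and Padi6 to the peptidylarginine deiminases. Zar1 is a zinc finger protein that binds stored maternal mRNA. Gdf9 is a ligand of the TGF-beta family that the oocyte secretes to the follicle cells around it, and Nobox is a homeobox transcription factor of early follicles.

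Dnmt1 methylates cytosine in CpG dinucleotides, so the CpG content of the promoters is shown first. RefSeq promoter windows of GRCm38.p6 run from 250 bases before a transcription start to 50 after it. The 250 bases before the start are printed below for 2 members whose windows held few CpGs (Khdc3, Padi6) and 2 with many (Ooep, Zar1), 5′ to 3′ on the strand of the gene, with CpGs in capitals. They lie at chr9:73102148-73102397 on the plus strand for Khdc3, and on the minus strand at chr4:140742644-140742893 for Padi6, chr9:78378589-78378838 for Ooep and chr5:72581085-72581334 for Zar1.
Khdc3: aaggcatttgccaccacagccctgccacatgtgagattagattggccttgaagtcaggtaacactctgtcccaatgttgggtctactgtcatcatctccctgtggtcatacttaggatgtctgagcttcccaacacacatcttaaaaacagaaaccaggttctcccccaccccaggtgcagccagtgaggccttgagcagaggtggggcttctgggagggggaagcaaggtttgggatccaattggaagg
Padi6: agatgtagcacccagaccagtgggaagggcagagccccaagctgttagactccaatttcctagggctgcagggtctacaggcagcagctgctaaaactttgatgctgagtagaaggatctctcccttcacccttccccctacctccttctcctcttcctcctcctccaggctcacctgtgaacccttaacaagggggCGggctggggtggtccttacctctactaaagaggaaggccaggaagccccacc
Ooep: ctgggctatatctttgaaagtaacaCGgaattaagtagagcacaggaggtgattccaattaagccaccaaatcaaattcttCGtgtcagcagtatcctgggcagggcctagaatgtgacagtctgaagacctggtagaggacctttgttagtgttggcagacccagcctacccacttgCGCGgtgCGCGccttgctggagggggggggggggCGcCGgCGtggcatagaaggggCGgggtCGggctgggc
Zar1: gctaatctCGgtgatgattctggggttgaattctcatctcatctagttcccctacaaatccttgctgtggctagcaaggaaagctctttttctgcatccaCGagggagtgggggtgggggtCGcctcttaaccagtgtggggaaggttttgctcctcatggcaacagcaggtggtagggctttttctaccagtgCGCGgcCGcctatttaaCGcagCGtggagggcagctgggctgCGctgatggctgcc

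The Khdc3 window held 0 CpGs in its 300 bases although its G+C content was 52.7%. A window with no CpG was uncommon, at 5.43% of the 32851 windows in the table, whose median was 7 CpGs. The Padi6 window held 2 CpGs, as did that of Nlrp4f. Ooep had 15, Zar1 17 and Nobox 13. Nlrp5 and Tle6 have 2 windows each, with 1 and 9 CpGs for Nlrp5 and 18 and 3 for Tle6. Of the 10 members, 8 had a window, and Gdf9 and Npm2 had none in the table. These counts describe the sequence only, since methylation was not measured.

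**Figure D1:**
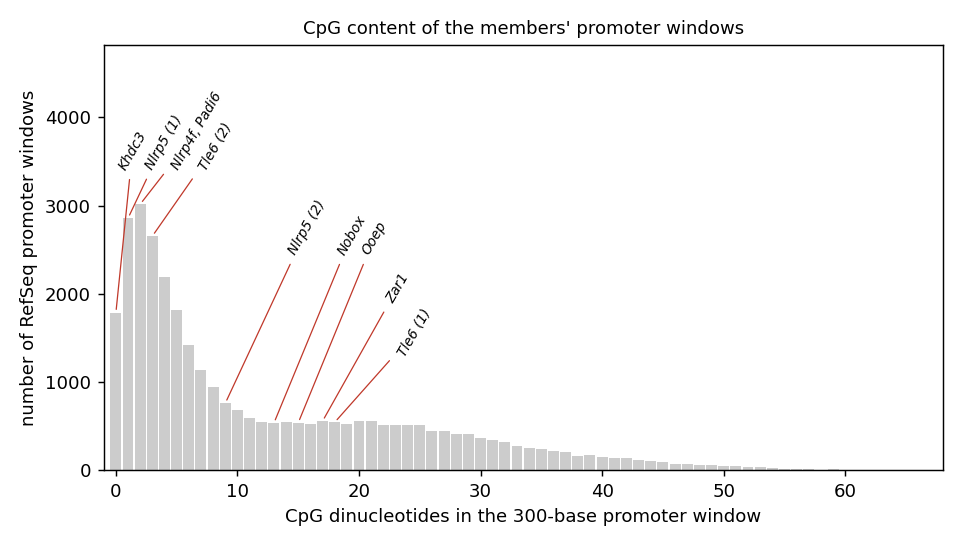
Number of RefSeq promoter windows (y axis) by their count of CpG dinucleotides in 300 bases (x axis), with grey bars for all 32851 windows and red lines to the windows of the members. Numbers in brackets separate the 2 windows of Nlrp5 and of Tle6. Khdc3 sits in the bar at 0 CpGs, and Ooep, Zar1 and the first Tle6 window lie between 15 and 18.

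Motifs were searched on both strands of the same windows. The E-box CACGTG, which holds a CpG, was found 2 times in the first Tle6 window and in no other member, against 7.15% of all windows. The E2F motif TCCCGC, which also holds a CpG, occurred once in the second Nlrp5 window and once in that of Zar1, against 20.0% of all windows. The NOBOX element TAATTG occurred once each in Ooep and Padi6, and in 2628 of all windows. None of the 3 motifs was in the Khdc3 window. With 0 CpGs that window could not hold the E-box or the E2F motif, so only the search for the NOBOX element was open there.

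The targeted gene was examined before the members. The brightest Dnmt1 probe set read 1949.1 in the control and 262.1 in the KO, and the others read 874.7 and 348.3 in the control against 56.8 and 20.0 in the KO. The labels and the signal therefore point the same way, although which part of the gene was deleted is not stated. Signals at or below the median of an array, 60.9 for the control and 74.2 for the KO, were treated as being at a floor, and a gene above the floor on at least 1 array is called measured. The median gene above both floors was 1.34-fold brighter on the KO array (a log2 shift of 0.43), and ratios below are KO over control relative to that shift unless called as deposited. All 11 ES cell markers listed were above the floor on both arrays. Of them, 2 were at least 2-fold higher, also as deposited, beside 1.09% of all measured genes (4.92% as deposited). The 2 were Nanog (592.5 to 1965.5) and Esrrb (361.8 to 1098.1, log2 ratio 1.18), although other Esrrb probe sets had 0.95 and 0.40. Utf1 (-0.62, and -0.04 on another probe set) and Fgf4 (-0.51) were the lowest of the list. Pou5f1 and Sox2 had log2 ratios of -0.13 and -0.07. Of 6 genes that define oocytes, Zp2, Figla, Bmp15 and H1f8 stayed under both floors, and the deposited signals of the 6 summed to 289.5 in the control and 362.5 in the KO.

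Khdc3 was the member that differed most. Its signal was 67.7 in the control, just above the floor of 60.9, and 754.2 in the KO, which is 10.2 times the floor there. The gene was thus near the floor in the control culture and well above it in the KO culture. The ratio was 8.30-fold relative to the shift (log2 ratio 3.05) and 11.1-fold as deposited (log2 ratio 3.48), the highest among 10995 genes above both floors. The control signal was 1.11 times its floor, and with floors at the 75th percentile the log2 ratio is only a bound, at least 1.47. Khdc3 was the 1 member of 6 measured that was at least 2-fold higher, and no member was at least 2-fold lower. Among all 12226 genes above the floor on at least 1 array, 1.09% were higher and 0.532% lower by at least 2-fold. As deposited, the member counts were the same, against 4.92% higher and 0.0982% lower of all genes. The contrast that gave these counts was also used to choose the members, so nothing further is read from them.

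The remaining components of the maternal complex were each less than 2-fold different or below the floors. Ooep, the other KH-related member, read 636.2 in the control and 607.4 in the KO, so it was well above the floor in both cultures. Its log2 ratio was -0.49, lower than the ratio of 93.7% of genes above both floors. Tle6 went from 77.7 to 122.2 (log2 ratio 0.23), and Padi6 from 74.9 to 88.6 (log2 ratio -0.18). Both lay only a little above the floors, and the sign for Padi6 turned as deposited (0.24).

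The NLR family members stayed under the floors. Nlrp5 read 6.7 in the control and 3.8 in the KO, far below both floors. Nlrp4f had 20.3 and 71.7, and the KO value was just under the floor of 74.2. No ratio is given for either, and with no detection calls they cannot be called absent.

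The oocyte factors outside the complex differed little. Zar1 went from 130.2 to 176.1 (log2 ratio 0.01), which places it at the median gene. Gdf9 was 139.2 and 144.0 (log2 ratio -0.38 relative to the shift and 0.05 as deposited, so its sign depended on the scaling). Nobox, at 28.0 and 52.9, was below the floor on both arrays.

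In order of the ratio, Khdc3 was followed by Tle6, Zar1, Padi6, Gdf9 and Ooep. The gap from Khdc3 to Tle6 was 2.82 on the log2 scale, and it only describes a gene listed with its high signal known. Each later gap was between 0.12 and 0.22, within the SD of 0.24 found between probe sets of the same gene. That SD was pooled over 4704 genes from probe sets above both floors. It is a technical scale that includes no difference between cultures. The median log2 ratio of the 6 measured members was -0.09 (0.34 as deposited), beside a median of 0 over all genes above both floors (0.43 as deposited).

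**Figure D2:**
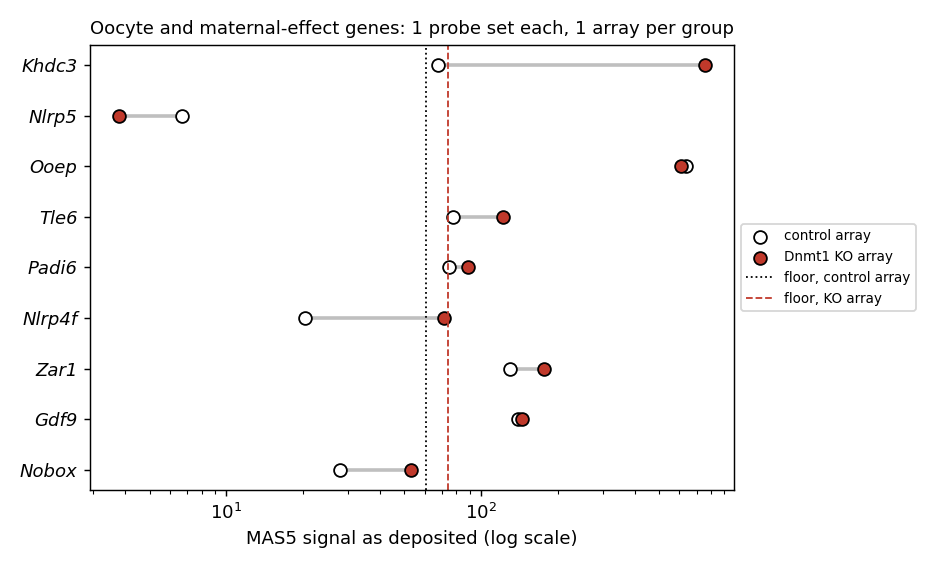
Deposited MAS5 signal (x axis, log scale) of the 9 members with a probe set, with open points for the control array, red points for the KO array and vertical lines for the floors of 60.9 and 74.2. Khdc3 spans 67.7 to 754.2, the Ooep points nearly coincide at 636.2 and 607.4, and Nlrp5, Nlrp4f and Nobox lie below the floors on both arrays.

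Other oocyte and maternal-effect genes were listed beside Khdc3. The list was chosen with earlier results of these data known, so its counts and median are a description and no check. Of 49 listed genes, 44 had a probe set, of which 23 stayed below both floors and 21 were measured. Among the latter, 2 were higher and 0 lower by 2-fold or more (4 and 0 as deposited). The shares over all measured genes were 1.09% and 0.532% (4.92% and 0.0982% as deposited). Izumo1r (73.6 to 16) and Zp1 (66.6 to 62.1) were below the floor in the KO and have only bounds, at most -0.41 and at most -0.27. The median log2 ratio of the 21 genes was 0.20 (0.63 as deposited). Sohlh2, a transcription factor of early germ cells, went from 130.4 to 513.3 (log2 ratio 1.55). Gtsf1, a small zinc finger protein of the piRNA pathway that silences transposons, went from 117.5 to 446.9 (2.83-fold), and its second probe set from 74.7 to 364.4 (log2 ratio 1.86). Nlrp4c, a relative of Nlrp4f, was below the floor in the control (43.9) and at 161.6 in the KO, a log2 ratio of at least 0.98. Dppa3 (Stella), a maternal factor that protects methylation in the zygote, went from 471.2 to 1023.3 (0.69), and as deposited Dppa3 and Nlrp4c also passed 2-fold.

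Within this list, Zbed3, a protein reported as a partner of the maternal complex, went from 118.8 to 212.3 on its brightest probe set (log2 ratio 0.41), while the other 3 of its 4 probe sets were near or below the floors. Among other NLR genes of the oocyte, Nlrp9b went from 118.0 to 207.5 (0.39) and Nlrp14 from 41.8 to 97.1 (at least 0.25), while Nlrp4a, Nlrp4b, Nlrp4e, Nlrp9a and Nlrp9c were below the floor on both arrays. The zona pellucida gene Zp3, which encodes part of the egg coat, went from 87.7 to 140.1 (0.25). Ybx2 and Cpeb1, which bind stored mRNA in the oocyte, had log2 ratios of 0.01 and -0.07.

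Paralogs of the members were compared next. Of 17 on the array, 10 were measured and the median log2 ratio was -0.05. The 9 above both floors were less than 2-fold different with either scaling, and Nlrx1, from 35.2 to 85.1, has only a bound (at least 0.06). Tle4 went from 1467.8 to 1535.0 (log2 ratio -0.36) and Tle3 from 284.8 to 431.8 (0.18). The nucleolar protein Npm1 had 9281.9 and 10817.0 (-0.20). Padi3 went from 121.2 to 195.9 (0.27) and Padi2 from 241.5 to 274.5 (-0.24), whereas Padi1 and Padi4 were under both floors. Of the KH-related relatives of Khdc3, Dppa5a, an ES cell gene, was bright on both arrays at 9428.1 and 10844.9 (-0.22), and Khdc1a and Khdc1b were below the floor on both. Among the receptors and signal carriers used by Gdf9, 5 of 6 were measured, with log2 ratios between -0.22 and 0.05. Bmpr2, its type II receptor, had -0.17, and Bmpr1b was below both floors.

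**Figure D3:**
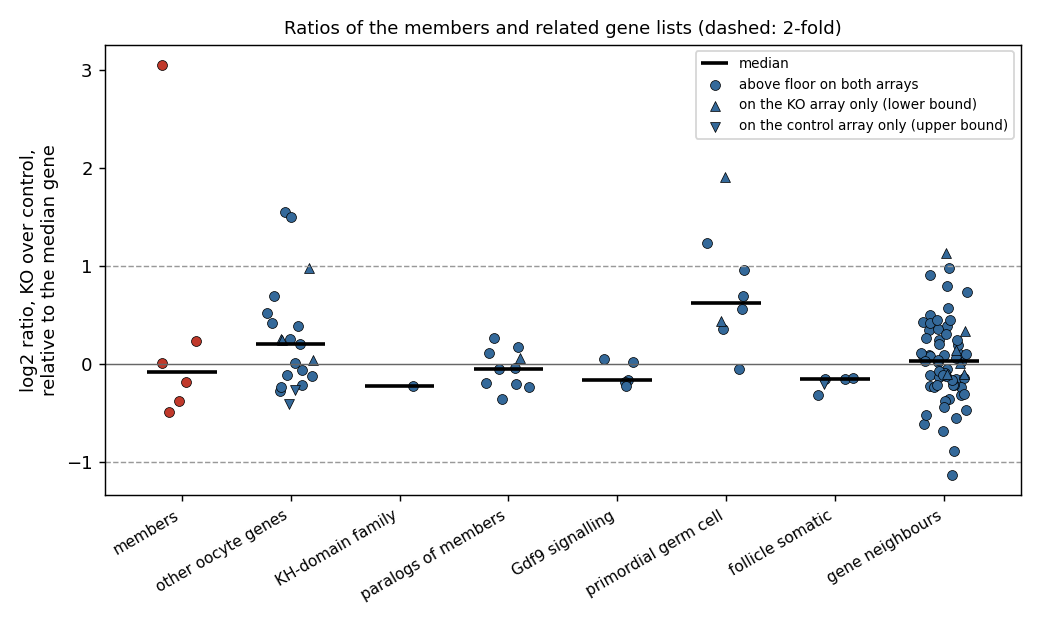
Log2 ratio of KO over control relative to the median gene (y axis) for the measured genes of 8 lists (x axis). Circles are above the floor on both arrays, triangles are bounds, black bars are medians and dashed lines mark 2-fold. Khdc3 at 3.05 stands alone above the other members, which lie between -0.49 and 0.23.

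Markers of other cells were read beside the Khdc3 value. These lists, too, were chosen with earlier results of these data known, so their counts are a description. Of 9 listed primordial germ cell markers, 8 were on the array and all 8 were measured. Dazl (at least 1.91, and at least 0.59 on its second probe set) and Tfap2c (1.23) were at least 2-fold higher, or 4 of 8 genes as deposited. Dazl (59.5 to 307.8) and Prdm14 (36.5 to 110.9) were below the control floor, so they count as measured only through the KO array. Among all measured genes, 1.09% were at least 2-fold higher (4.92% as deposited). Ddx4, from 274.9 to 355.8, had a log2 ratio of -0.05. The median log2 ratio of the 8 markers, which takes in the bounds of Dazl and Prdm14, was 0.63 (1.05 as deposited). Their deposited signals summed to 1862.6 in the control and 4457.2 in the KO, and none was at 0. Dppa3 belongs to both this list and the oocyte list, Tfap2c to both this list and the trophoblast list, and several of these genes are also expressed by ES cells. Of 11 trophoblast markers, 8 were measured and 3 were at least 2-fold higher, beside 1.09% of all measured genes. They were Krt7 (at least 1.17), Plac1 (1.03) and Tfap2c. Krt7 (58.2 to 184.5) was also measured only through the KO array. Going the other way were Eomes (-0.27, and 0.07 on its other probe set) and Cdx2, from 70.7 to 54.1 (at most -0.36). Elf5, Gata3 and Tpbpa were under both floors. The deposited signals of the trophoblast list summed to 2859.6 and 5325.1. The part of the germ cell and trophoblast markers in the Khdc3 result was not tested.

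Of 8 markers of follicle somatic cells on the array, 5 were measured and the summed deposited signals were 813.5 and 868.6. The 4 above both floors were less than 2-fold different, and Inhba, from 63.7 to 10.3, has only a bound (log2 ratio at most -0.21). The follicle regulator Foxl2 had a log2 ratio of -0.32. Feeder cells would bring fibroblast markers, of which 13 had a probe set and 6 were measured. The deposited signals of the 13 summed to 1522.5 and 1964.7, without correction for the 1.34-fold shift between the arrays. The 5 above both floors were less than 2-fold different. Col6a2 (-0.81), Col1a1 (-0.66), Col1a2 (-0.28) and Acta2 (-0.03) lay below the shift and Thy1 (0.27) above it. The other probe sets of Col6a2 and Col1a1 had smaller differences (-0.44 and -0.19). A part of feeder cells in the signals was not tested. Col6a1, from 8.4 to 89.4, has only a bound (at least 0.13). Of 10 primitive endoderm markers, 6 were measured, with deposited sums of 673.5 and 970.1. The 3 above both floors were less than 2-fold different, and Gata4, Gata6 and Sox17 have bounds of at most -0.54, at most -0.37 and at least 0.32.

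The genes beside Khdc3 on chromosome 9 were examined because the RefSeq gene order allows neighbours to be compared. Of the 5 nearest genes with a probe set on each side, 7 were measured, 5 lay above the shift and 1 was at least 2-fold higher. Among all measured genes, 49.2% lay above the shift and 1.09% were at least 2-fold higher. Rab27a, a small GTPase of vesicle transport, was the next gene with a probe set on one side. It was below the floor in the control (54.3) and at 179.3 in the KO, a log2 ratio of at least 1.13. That value came from 1 of its 4 probe sets, and the other 3 were near or below the floors. With the mean over its probe sets the log2 ratio was 0.22, under 2-fold. Ccpg1, a receptor for autophagy of the endoplasmic reticulum, went from 185.4 to 491.5 (0.98), and its second probe set had 0.67. Pigbos1 went from 143.2 to 332.6 (0.79), but its second probe set had 0.10. Pigb, an enzyme of GPI anchor synthesis, had 0.24 and Ccpg1os -0.12.

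On the other side of Khdc3, Rsl24d1, a ribosome assembly factor, went from 943.4 to 1613.6 (0.35). Unc13c, Gm16551 and Onecut1 were below both floors, and Fam214a had -0.16. Rab27a aside, whose ratio is a bound, the measured neighbours lay at 0.98 or below, against 3.05 for Khdc3. Ccpg1 and Pigbos1 had higher ratios than 99.0% and 98.0% of genes above both floors, and as deposited both passed 2-fold (log2 ratios 1.41 and 1.22).

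Ooep lies on the same chromosome among other genes. Its neighbours included Dppa5a on one side and Ddx43, a germ-cell helicase, on the other. Of 7 measured neighbours none was at least 2-fold different, beside 1.09% higher and 0.532% lower of all measured genes. Ddx43 went from 183.8 to 260.8 (log2 ratio 0.08), Cgas, a sensor of cytosolic DNA, had -0.47, Mto1 0.44, Eef1a1 -0.36 and Slc17a5 0.73. The oocyte genes Omt2a and Omt2b beside them were below both floors.

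Around all 10 members together, 66 of 100 neighbours were measured, 36 lay above the shift, and 1 was at least 2-fold higher and 1 lower. The share above the shift among all measured genes was 49.2%, and 1.09% were at least 2-fold higher and 0.532% lower. The higher neighbour was Rab27a, whose ratio is a bound. The lower neighbour was Fgf17, a growth factor gene next to Npm2, which went from 160.1 to 98.0 (log2 ratio -1.13) on the 1 of its 2 probe sets that was above the floors, and as deposited it was under 2-fold lower (-0.71).

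**Figure D4:**
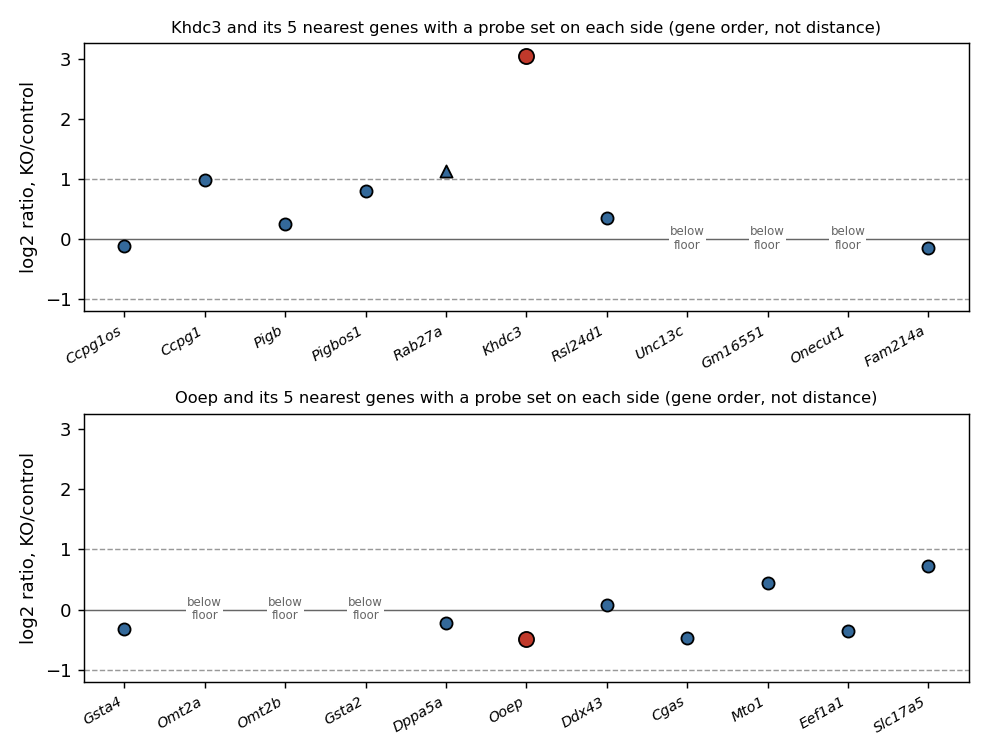
Log2 ratio of KO over control relative to the median gene (y axis) for Khdc3 (top) and Ooep (bottom), in red, and for their 5 nearest genes with a probe set on each side, in gene order (x axis). The triangle for Rab27a is a lower bound. Khdc3 lies at 3.05 and Rab27a at 1.13 or above, and the genes around Ooep lie between -0.47 and 0.73.

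The genes most like Khdc3 were those with the smallest distance from it in the floored log2 signals of the 2 arrays, which is a likeness over 2 samples only. They were Gm6958 (83.3 to 700.3, distance 0.32), Gm364 (85.8 to 799.9, 0.35), Rhox6 (54.3 to 602.8, 0.36), Cox7b2 (61.3 to 585.1, 0.39) and Efhc2 (8.1 to 551.2, 0.48). Rhox6 is an X-linked homeobox gene of reproductive tissues and Cox7b2 a testis-enriched relative of a cytochrome c oxidase subunit. Gm364, Rhox6 and Efhc2 are on the X chromosome, Gm6958 on chromosome 16 and Cox7b2 on chromosome 5. Gm6958 and Rhox6 belong to gene families whose copies may share probes, and Rhox6 and Efhc2 were below the floor on the control array. Their distances are therefore taken from the floor of 60.9 and not from the signals printed, and that of Efhc2 in particular would be larger without it.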

How the data were processed

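The deposited values were linear signal intensities per probe set, made with MAS5, per the submitters' processing notes. The sources used here give no target intensity, scaling or detection calls. Of 45101 probe sets, 64 controls were left out. Genes were named from the platform annotation (34945 probe sets with 1 symbol) and updated to RefSeq symbols of GRCm38.p6. The assembly behind the array annotation is not stated, so base positions are printed only for RefSeq promoters. Signals at or below each array's median were set to it, log2 was taken, and the brightest probe set stood for a gene. Ratios were centred on the median of 10995 genes. Genes at 1 floor have a bound and genes at both no ratio. The call was 2-fold, with no test, since the number of arrays limits precision.

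Members and gene lists were chosen with earlier results of these data known. Named were all members, Dnmt1, up to 4 genes per list with the largest ratios, paralogs, the neighbours of Khdc3, other neighbours past 2-fold and the 5 genes nearest Khdc3. Further genes were named after their values were seen: Zbed3, Zp3, Ybx2, Cpeb1, other oocyte Nlrp genes, Foxl2, Ddx4, genes with bounds in the oocyte, marker and paralog lists, other trophoblast and fibroblast markers, ES and defining oocyte markers, and neighbours of Ooep. Planned protein comparisons were not run. The procedure was tested on simulated data. Python 3.11.15, pandas 2.3.3 and statsmodels 0.14.6 were used.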

Additional observations from a re-analysis of the deposited data

How the results depend on the processing

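Alternatives covered the scaling, the floor, the choice of probe set, the genes that set the shift and the fold threshold. Khdc3 was at least 2-fold higher in each of them, with a log2 ratio between 1.47 (floor at the 75th percentile, a bound) and 3.48 (as deposited). As deposited, the member median was 0.34, the median of the measured members other than Khdc3 moved from -0.18 to 0.24, and 4 other oocyte genes were higher. With the floor at the 75th percentile, where only Khdc3 and Ooep were measured, these values were 0.48, -0.51 and 0. With the floor at the 25th percentile, 2 members were higher (Khdc3 and Nlrp4f), and 3 other oocyte genes were higher and 3 lower by at least 2-fold. Quantile normalization, lowess and the mean over probe sets each gave 3 other oocyte genes higher (Nlrp4c added). With the mean over probe sets, Rab27a beside Khdc3 fell under 2-fold (log2 ratio 0.22). With no floor, 2 members were higher, 1 was lower (Nlrp5), and 5 other oocyte genes were higher and 7 lower. The members and other oocyte genes added with the floor at the 25th percentile or none lay below both main floors, except Nlrp4c and Izumo1r. The share of all measured genes called was not computed for these settings, so nothing is read from their counts. A threshold of 1.5-fold gave 4 other oocyte genes higher and one of 3-fold gave 0. Over all genes, 133 were higher and 65 lower, against 602 and 12 as deposited, 361 and 388 with the lower floor, 48 and 12 with the higher floor, 929 and 1118 with no floor, 104 and 25 with the mean over probe sets, 579 and 519 at 1.5-fold and 32 and 6 at 3-fold. Scaling by the 2% trimmed mean, quantile normalization, lowess and a shift taken without chromosome 8 kept every member count. Ooep stayed below 0 in each setting, from -0.52 to -0.07, while Padi6, Gdf9 and Zar1 changed sign in at least 1. No paired analysis was possible because each group has 1 array, and no array could be left out.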
